A study of Mus musculus with 4 samples.

Results

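Ligament of mice transgenic for a gene that the labels call only A was compared with ligament of wild type mice, across all genes measured on the arrays. Both samples were of the C57BL/6J background and were described as ligament tissue. The transgene was the mouse gene A in pCAGGS, a plasmid with the CAG promoter, which drives strong expression in most cell types and is not restricted to ligament. It was introduced into fertilized eggs, and newborns that carried it were found by PCR of tail DNA. The labels do not give the age of the mice, which ligament was taken, how many animals were pooled, or whether the sampled animals came from 1 founder. Because A is not named, its own level could not be used to check the genotype. RNA of each sample was labelled with Cy3 alone and read on 1 Agilent array of the whole mouse genome. The remaining 2 of the 4 arrays of the study held C3H mesenchymal stem cells and the tissue formed by these cells after transfection with A, and are used here only to show where the called genes were also detected. With 1 array a side there was no replicate, so every value below describes these 2 arrays and none was tested.

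A gene was included when its probe was well above background, by the mark of the scanner software, on at least 1 of the ligament arrays. This held for 16924 of 30154 genes. The level of a gene is its log2 processed signal minus the 75th percentile of its own array, and a difference is the transgenic level minus the wild type level. Where 1 of the arrays lacked that mark the fold is only a lower limit. It was taken against the faintest marked signal on the array in question, or against the signal of the probe there if that was brighter, and is written as at least N-fold. Some limits are given below as a log2 difference instead. A limit of 1-fold or under gave no value, which left 16396 genes with a value, of which 14504 were measured on both arrays.

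Ligament is a dense connective tissue of parallel type I collagen fibrils, spaced and bound by small leucine-rich proteoglycans and by oligomeric proteins such as COMP. Its fibroblasts depend on the transcription factors scleraxis (Scx) and Mohawk (Mkx), and on tenomodulin (Tnmd), a membrane protein of tendon and ligament cells. It inserts into bone through a zone of fibrocartilage, and skeletal muscle, fat, vessels, marrow and skin lie close to it, so a dissection may carry RNA of any of these. In such bulk samples, fewer cells of a type and less RNA per cell cannot be told apart.

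The tissue label was checked against defining markers. Scx, Tnmd and fibromodulin (Fmod) were well above background on both ligament arrays, whereas Mkx was well above background on the transgenic array and not on the wild type array. Skeletal muscle genes were among the brightest of both arrays. The actin Acta1, main actin of skeletal muscle fibres, had levels of 9.85 transgenic and 10.40 wild type, and the muscle creatine kinase Ckm had 8.97 and 9.59. The muscle lists together held 6.35% of the summed signal of all genes on the transgenic array and 6.30% on the wild type array. The skin lists held 0.180% and 0.0397%, and the blood and marrow lists 0.674% and 1.43%, in the same order. Muscle, blood and skin genes were thus part of both samples, with more skin signal on the transgenic array and more blood signal on the wild type array. The part of this makeup in the differences below was not tested.

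Signals were low on both ligament arrays. The 75th percentile of the processed signal was 285 on the wild type and 303 on the transgenic array, 49.0% and 53.5% of spots were well above background, and no spot was saturated. The lowest level well above background was -3.41 on the wild type and -3.90 on the transgenic array, so dimmer genes could be measured in the transgenic sample. Further, 1849 genes were well above background in transgenic ligament alone and 571 in wild type ligament alone. The SD of log2 signal over probes with 10 spots was 0.0989 and 0.107, or 0.145 for a difference. This covers spot noise of well measured probes on these arrays, and not the spread between animals or dissections.

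Of the 16396 genes with a value, 1035 (6.31%) were at least 2-fold higher in transgenic ligament and 1160 (7.07%) at least 2-fold lower. These shares are the background for every gene list below. The median difference was -0.03, with quartiles of -0.39 and 0.32. At least 4-fold differences were seen for 187 genes that were higher and 267 that were lower, and at least 8-fold differences for 18 and 58. Limits made up 355 of the higher and 381 of the lower calls. Calls became rarer with brightness among genes measured on both arrays. Of the 3626 dimmest genes 7.28% were higher and 7.94% lower, and of the 3626 brightest 1.96% and 3.67%. With normexp background correction, which lifts dim signals on both arrays, 404 genes were higher and 572 lower. Of the 333 genes past 2-fold that the rule for named genes takes, 112 were then no longer past 2-fold. None of the 333 changed sign.

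**Figure D1:**
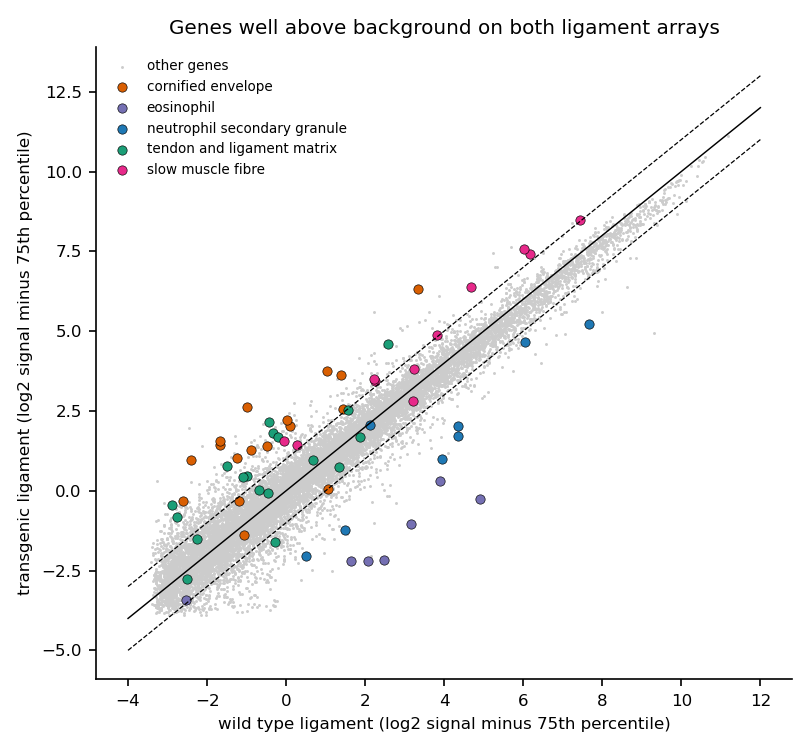
Each point is a gene well above background on both ligament arrays, with its wild type level on the horizontal and its transgenic level on the vertical axis (log2 signal minus the 75th percentile of the array). The solid line marks equal levels and the dashed lines a 2-fold difference. Cornified envelope genes lie mostly above the upper dashed line and eosinophil and neutrophil granule genes mostly below the lower one, while 9 of the tendon matrix genes lie above the upper line and 1 below the lower.

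The ranks given here and in the next paragraph cover genes with an official-style symbol. Clone names, predicted genes and unnamed transcripts were left out of them, and some of these had differences as large. Many of the largest differences among the ranked genes belonged to a few tissues. Cilp led the genes measured on both arrays. It encodes a matrix protein of cartilage intermediate layer and of tendon (probe at chromosome 9, 65128007 to 65128066, mm9). Its level was 1.98 in transgenic and -2.46 in wild type ligament, a 21.7-fold difference. Late cornified envelope genes of skin followed, with Lce1a1 at 12.1-fold, Lce1c at 10.3-fold, Lce1d at 9.37-fold and Lce1b at 8.70-fold. Also among the 12 highest were Mss51, a mitochondrial protein of skeletal muscle that responds to myostatin signalling (10.4-fold), Cytl1, a secreted factor of cartilage (7.99-fold), Mepe, a bone matrix phosphoprotein (6.80-fold), and the integrin-like protein Itgbl1 (6.37-fold). Lor, Lce1m and Fam199x completed these 12. The largest lower limits among higher genes were those of Lce1i at 13.7-fold and the proteoglycan Spock2 at 11.5-fold, followed by Proc, Samd7, Spsb4 and Paxip1 between 7.16-fold and 8.79-fold.

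The lowest genes with such a symbol were mostly of eosinophils. Prg2, the eosinophil major basic protein (probe at chromosome 2, 84822799 to 84822858, mm9), had a level of -0.27 in transgenic and 4.91 in wild type ligament, 36.3-fold lower. The eosinophil ribonucleases Ear1, Ear10, Rnase2a, Ear12, Ear6 and Ear2 were between 11.8-fold and 24.7-fold lower. These genes are near-identical copies, so their probes may share signal. Among the 12 lowest, the cardiac and embryonic actin Actc1 had levels of 4.94 and 9.30, 20.5-fold lower in transgenic ligament. Pde5a was 12.8-fold and Zfp605 9.55-fold lower at 1 probe each, and their other probes were not well above background on either array. Unc93a2 and the basophil protease Prss34 were 9.47-fold and 9.31-fold lower. Of the lower limits, Tpsab1, a mast cell tryptase, was at least 28.9-fold lower, the immune receptor Havcr2 at least 20.2-fold, the eosinophil protein Prg3 at least 18.7-fold, and Nkx1-2, Ear7 and Apol10a at least 16.4-fold to 17.6-fold.

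Genes listed for tendon and ligament matrix were higher in transgenic ligament more often than the background. The list is not exclusive to ligament, and Cilp2 is also in the joint list below. Of 19 tendon and ligament matrix genes, all detected, 9 were at least 2-fold higher and 1 lower, with a median difference of 0.96. Tnmd had levels of -0.43 and -2.89, a 5.48-fold difference. Comp, which bridges collagen fibrils, had levels of 2.15 and -0.43, 5.99-fold higher. Thbs4, a thrombospondin of tendon and muscle junctions, had 4.60 and 2.59, a difference of 2.01. These probes were well above background on both arrays, and all lay higher on the transgenic array. Ptx4, Cilp2, Ecrg4, Chad and Kera differed by between 1.44 and 2.26. Angptl7 at 0.96, the tenascin Tnc at 0.75 and Clec3b at 0.71 stayed within 2-fold. So did Abi3bp (0.38), the collagen-binding integrin Itga11 (0.29), Col12a1 (-0.18), Col14a1 (-0.27) and the tenascin Tnxb (-0.58). The limit for Fbn2 was 0.44, which does not show whether it passed 2-fold. Dermatopontin (Dpt), a small matrix protein of skin and fascia, was the exception with levels of -1.62 and -0.29, a difference of -1.33. With normexp correction the differences of Cilp2 and Dpt came to 0.89 and -0.96, within 2-fold.

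Transcription factors of tendon had a smaller median difference than the matrix genes. Of 11, all detected, 3 were higher and none lower, and their median of 0.20 lay closer to the median of all genes. Egr1, a zinc finger factor induced by stretch and required for tendon collagen, differed by 1.80, Egr2 by 1.33 and Scx by 1.08. Egr1 and Egr2 are also in the immediate early list below. Scx had levels of 3.10 and 2.02. Eya2 differed by 0.51, Tcf15 by 0.20, Nfatc4 by 0.07, Foxp1 by -0.08, Six2 by -0.24 and Eya1 by -0.42. A dimmer probe of Six2, well above background on both arrays, differed by -1.09. The limit for Mkx was 0.06, so its size is not known. Over genes measured on both arrays the median was 0.36 for the factors and 1.20 for the matrix list. The Egr2 difference came to 0.43 with normexp. In a list added after values were seen, the EGR co-repressors Nab2 and Nab1, of which Nab2 is itself an EGR target, differed by 2.18 and 0.64.

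Small leucine-rich proteoglycans, which set the diameter and spacing of collagen fibrils, had 7 of 12 detected genes higher, none lower and a median of 1.22, or 0.79 in its lowest alternative, out of 16 listed. Fmod had levels of 1.82 and -0.33, 4.44-fold higher. Asporin (Aspn) differed by 2.14, osteoglycin (Ogn) by 1.45, Ecm2 by 1.26 and osteomodulin (Omd) by 1.19, next to Chad and Kera, which the matrix list also holds. The abundant members differed less. Lumican (Lum) had levels of 4.79 and 4.05, decorin (Dcn) 6.72 and 6.35, and biglycan (Bgn) 0.62 and 0.87. Podnl1 and Podn differed by 0.71 and 0.21.

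Fibrillar collagens, the bulk of the fibrils, had 3 of 9 detected genes higher, none lower and a median of 0.39. The chains of type I collagen went apart. Col1a2 had levels of 7.62 and 6.60, a difference of 1.02, and Col1a1 had 6.70 and 7.22, a difference of -0.52. Each rests on 1 probe here. Col3a1 differed by 0.39, Col5a2 by 0.48, Col5a1 by 0.00, Col5a3 by -0.51 and Col11a1 by -0.31. The cartilage collagen Col2a1, with levels of 2.37 and 0.21, differed by 2.16 and Col11a2 by 1.07. Among 13 detected fibril-associated and other matrix collagens, 3 were higher and none lower. They were Col8a2 (2.11) and Col8a1 (1.64), short-chain collagens of vessels and cornea, and Col22a1 (1.51), which is placed at myotendinous and articular junctions. Col6a1, Col6a2 and Col6a3 differed by between -0.38 and -0.06.

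Collagen processing and cross-linking genes had 4 of 27 detected members higher and none lower. Their median was 0.31, and 25 of 27 lay above 0. Lysyl oxidase (Lox), which starts the cross-links, had levels of 0.04 and -2.01, 4.13-fold higher. Sec24d, a coat protein needed to ship procollagen out of the endoplasmic reticulum, differed by 1.35, and Crtap and Fkbp7, helpers of collagen folding, by 1.03 and 1.01. These last 3 fell within 2-fold under normexp, at 0.55 for Sec24d, 0.87 for Crtap and 0.89 for Fkbp7. The collagen chaperone Serpinh1 differed by 0.31 and the procollagen enhancer Pcolce by 0.56.

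Matricellular proteins, secreted regulators of cell and matrix contact, had 8 of 21 detected genes higher, none lower and a median of 0.69. Besides Comp and Thbs4 these were matrix Gla protein (Mgp), an inhibitor of calcification (2.24), the CCN proteins Ccn4 (2.09) and Ccn2 (1.86), Cthrc1 (at least 3.64-fold), Sparc (1.07) and Thbs2 (1.04). Sparc has another bright probe, with levels of 4.01 and 4.14, and the mean of its probes differed by 0.47. Thbs2 and Cthrc1 came to 0.53 and 0.91 in their lowest alternative. Periostin (Postn) differed by 0.48 and Tgfbi by 0.07. In contrast, none of 16 detected basement membrane genes passed 2-fold in either direction, with a median of 0.26 and a range from -0.60 to 0.82. Elastic fibre genes had 1 of 15 higher, Mfap4 at 1.56. Metalloproteinases and inhibitors had 2 of 16 higher, Adamts8 at 1.92 and Mmp23 at 1.27. Of 19 resident fibroblast genes, Meox1 was higher (1.60) and Osr1 (-1.11) and Dpt were lower. Their median was 0.19, and the general fibroblast markers Pdgfra, Pdgfrb, Vim and Thy1 lay between -0.09 and 0.19.

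**Figure D2:**
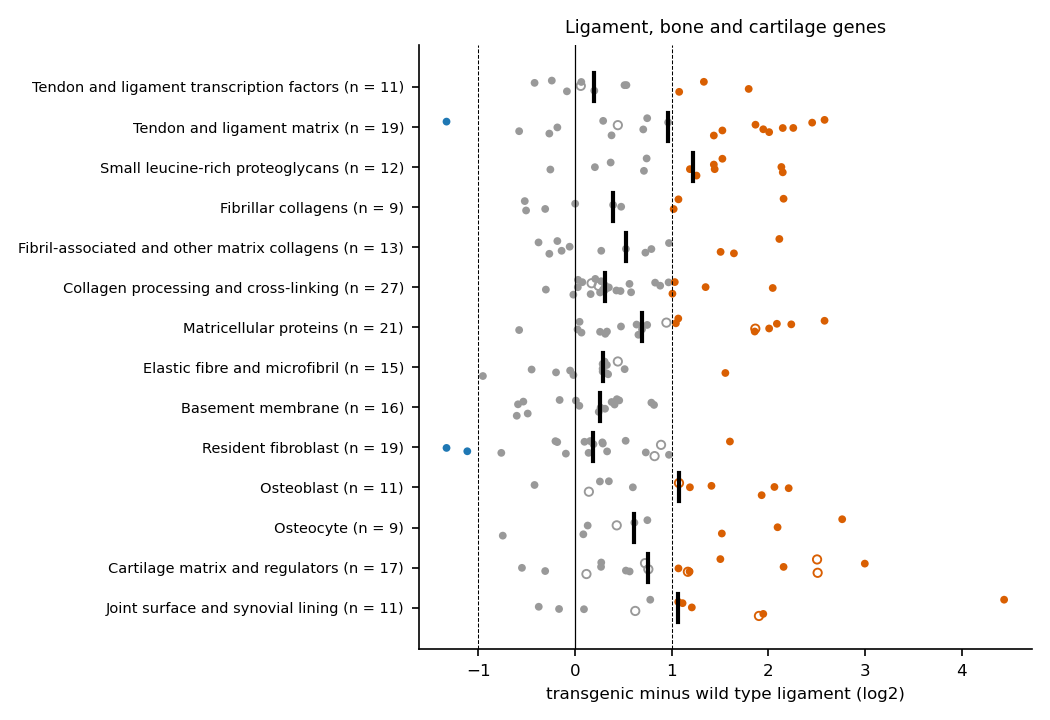
Points are genes of ligament, bone and cartilage lists, placed by the transgenic minus wild type difference (log2), with orange for at least 2-fold higher, blue for at least 2-fold lower and grey between. Open points are lower limits, black bars are list medians, and n counts genes with a value. Proteoglycan and matrix medians lie near 1, while the basement membrane and fibroblast medians lie between 0.19 and 0.26.

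Joint and skeletal genes lay higher as well. Of 11 detected joint surface and synovial lining genes 6 were higher and none lower, and the median was 1.07. Beside Cilp and Cilp2 they were lubricin (Prg4), the lubricant of joints and gliding tendons, with levels of 3.14 and 1.93, Crispld1 (at least 3.74-fold), Dkk3 (1.11) and Tppp3 (1.07), a marker of tendon sheath. Cartilage matrix and regulators had 8 of 17 detected members higher and none lower, and the median was 0.76. They included Cytl1, Col2a1 and Snorc (1.50), and the dim matrilin Matn3 and the growth plate protein Ucma, at least 5.70-fold and 5.68-fold higher. The cartilage markers were incomplete in both samples. Matn1, Cnmd and Epyc were not well above background on either array, and the proteoglycan aggrecan (Acan) and the regulator Sox9 were so only on the transgenic array, with limits of 0.12 and 0.72. Col10a1, the collagen of hypertrophic cartilage, differed by -0.34.

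Osteoblast genes had 6 of 11 detected members higher, none lower and a median of 1.08, out of 17 listed. That median is the limit of Smpd3, and it came to 0.42 in its lowest alternative. The osteocalcin copies Bglap2, Bglap and Bglap3 differed by 2.21, 2.06 and 1.93, and osteopontin (Spp1) by 1.41. These copies share sequence and their probes may share signal. The bone sialoprotein gene Ibsp went the other way, with levels of 2.46 and 2.88, and alkaline phosphatase (Alpl) differed by 0.35. The bone transcription factors Runx2 and Sp7 were not well above background on either array. Osteocyte genes had 3 of 9 higher and none lower. Mepe had levels of 1.48 and -1.28, Phex differed by 2.10 and Dmp1 by 1.52, all 3 being regulators of mineral and phosphate made by embedded bone cells, whereas Sost was not well above background on either array. Osteoclast genes did not follow. None of 12 detected passed 2-fold. Tartrate-resistant phosphatase (Acp5) had levels of 6.88 and 6.44, cathepsin K (Ctsk) 4.83 and 4.53, and the list median was 0.11. None of 8 genes of tooth enamel and dentin was well above background on either array.

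Muscle genes showed no common shift but differed by fibre type. Of 11 slow fibre genes, all detected, 9 were higher and none lower, and the median was 1.21. The slow myosin heavy chain Myh7 had levels of 6.39 and 4.68, the slow troponin T Tnnt1 had 7.56 and 6.01, and the light chain Myl2 had 7.40 and 6.18. The calcium pump Atp2a2, troponin Tnnc1, Casq2, Myl3, Myoz2 and Myh7b differed by between 1.05 and 1.61. All of these lay higher on the transgenic array, and Tpm3 alone lay lower, at -0.41. Of 14 fast fibre genes, 2 were higher and 2 lower, and the median was -0.35, or -0.03 in its highest alternative. The fast heavy chains Myh2 and Myh1 differed by 1.02 and 1.00. Their fast partners Tnnc2, Tnni2, Myl1, Tnnt3 and Actn3 differed by between -0.48 and -0.06, the calcium pump Atp2a1 by -1.06, and the fast regulatory light chain Mylpf, with levels of 2.96 and 5.02, by -2.06. The difference of Atp2a1 moved to -0.62 in its highest alternative. Myh4, the heavy chain of the fastest fibres, was not measured.

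Among 18 genes common to sarcomeres, Mybpc1 (1.72), the slow form of a myosin-binding protein, and myoglobin (Mb, 1.17), the oxygen store of slow fibres, were higher and none was lower. The other 16 lay between -0.95 and 0.96. The list median was -0.25, and it changed sign to 0.08 in its highest alternative.

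Genes of developing and regenerating muscle went in both directions, with 4 of 14 detected members higher and 1 lower. The embryonic heavy chain Myh3 differed by 2.66 and 2.50 at its pair of probes. Myl6b differed by 1.86, and the acetylcholine receptor subunit Chrnd and the synapse kinase Musk by 1.54 and 1.16. The perinatal heavy chain Myh8 had levels of 10.32 and 10.54. Actc1 was the gene that was lower, as given above, at -4.36. Of the myogenic regulators, Megf10 of satellite cells was at least 4.55-fold higher and the integrin Itga7 differed by 1.04. The muscle growth inhibitor myostatin (Mstn) had levels of 0.36 and 2.08, 3.29-fold lower. Pax7, Pax3 and Myf5 were not well above background on either array.

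Genes that respond to load or wasting of muscle were higher in 7 of 13 cases and lower in 1, with a median of 1.23. Mss51 had levels of 5.59 and 2.21. Sarcolipin (Sln), a small inhibitor of the calcium pump, had 4.16 and 1.85, 4.95-fold higher. Ankrd1, a stretch-induced titin partner, differed by 2.13, Csrp3 by 1.75, the cell cycle inhibitor Cdkn1a by 1.43, Xirp1 by 1.41 and follistatin (Fst), which binds myostatin, by 1.23. The ubiquitin ligases of atrophy went apart, with Trim63 at -1.10 and Fbxo32 at 0.69.

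**Figure D3:**
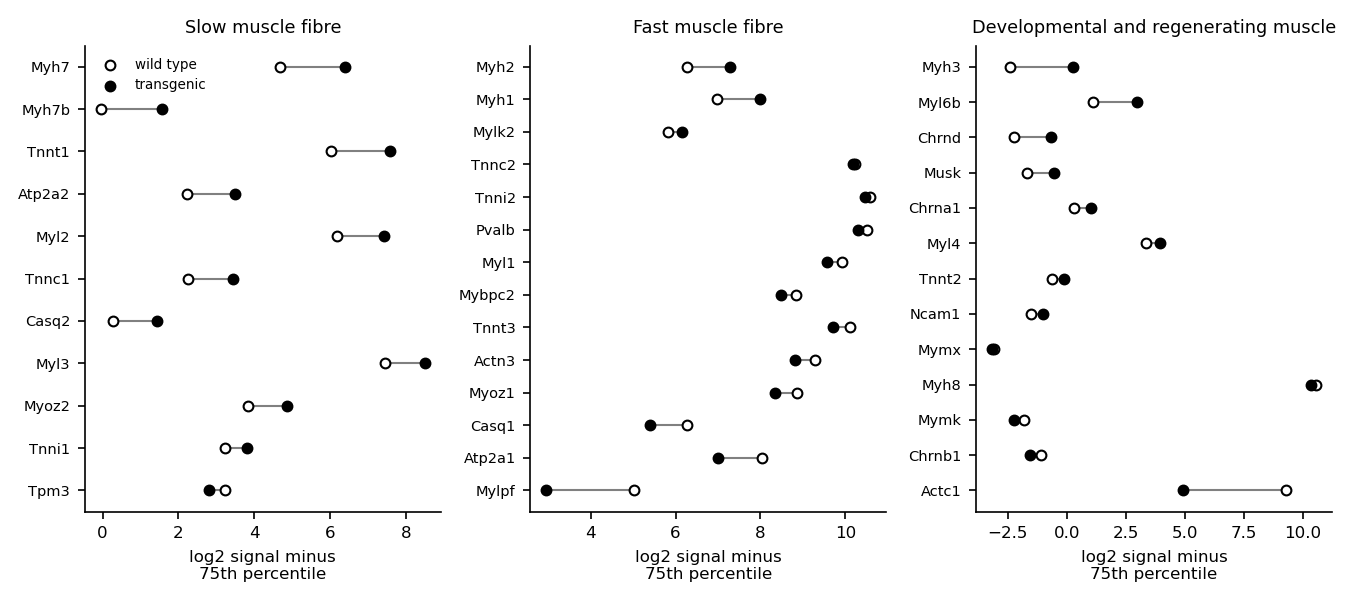
Levels (log2 signal minus the 75th percentile of the array) of muscle genes on the wild type array (open points) and the transgenic array (filled points), sorted by their difference within each list. Slow fibre genes lie to the right on the transgenic array except Tpm3, fast fibre genes lie mostly to the left, and Actc1 has the widest gap.

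Skin genes were higher in transgenic ligament, with 47 of 72 detected genes over all skin lists higher and 2 lower. Epidermis forms from basal cells (keratins Krt5 and Krt14), which move up as spinous cells (Krt1 and Krt10) and end as cornified cells rich in loricrin and late cornified envelope proteins. In the basal list 5 of 11 detected genes were higher, none lower, and the median was 0.85. All 14 spinous and junction genes were higher, with a median of 2.03. In the cornified envelope list 21 of 26 detected genes were higher and 1 lower, and the median was 2.22, out of 32 listed. The defining markers were well above background on both arrays. Krt5 had levels of 5.02 and 2.93, Krt14 had 2.00 and -0.28, Krt1 had 1.71 and -0.67, Krt10 had 5.16 and 3.07, and Lor had 6.31 and 3.33.

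Not every basal gene was higher. The basal factor Trp63 had levels of 2.77 and 2.94, and the laminin chains Lama3 and Lamb3 differed by -0.19 and -0.78. The suprabasal desmosome genes Dsp and Pkp1 differed by 2.25 and 2.18, and the cornified genes Hrnr, Kprp, Crct1, Asprv1 and Cnfn by between 2.16 and 2.31. Transglutaminase Tgm3 was the member that was lower, at -1.01, and the difference came to -0.70 in its highest alternative. Of a list of epidermal barrier lipid and protease genes, added after values were seen, 10 of 13 detected were higher, among them the ceramidase Acer1 (2.50), the lipoxygenase Aloxe3 (2.35), the ceramide synthase Cers3 (1.92) and the protease inhibitor Spink5 (1.84). The kallikreins that shed cornified cells, also added afterwards, were higher in 5 of 6 detected cases, with Klk5 at 2.16.

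Skin appendages were thinly represented. The sebaceous list had 3 of 5 detected genes higher, with Krt79 at 2.08, Gsdma at 1.98 and Scd3 at 1.04. Of 20 hair genes 10 had a value, and 2 of these, Tchh and Krt71, were at least 4.56-fold and 2.26-fold higher. The melanocyte list had 3 of 7 genes with a value, none higher and Oca2 lower. In the oral and wound epithelium list Krt17 differed by 2.46 and Krt13 by 1.37. In a list of simple epithelium added after values were seen, all 3 detected genes were lower. Krt18 had levels of -2.49 and 0.67, 8.89-fold lower, and its partner Krt8 and Krt19 were at least 3.97-fold and 2.77-fold lower. Cd207, the langerin of Langerhans cells in epidermis, was at least 4.54-fold higher.

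**Figure D4:**
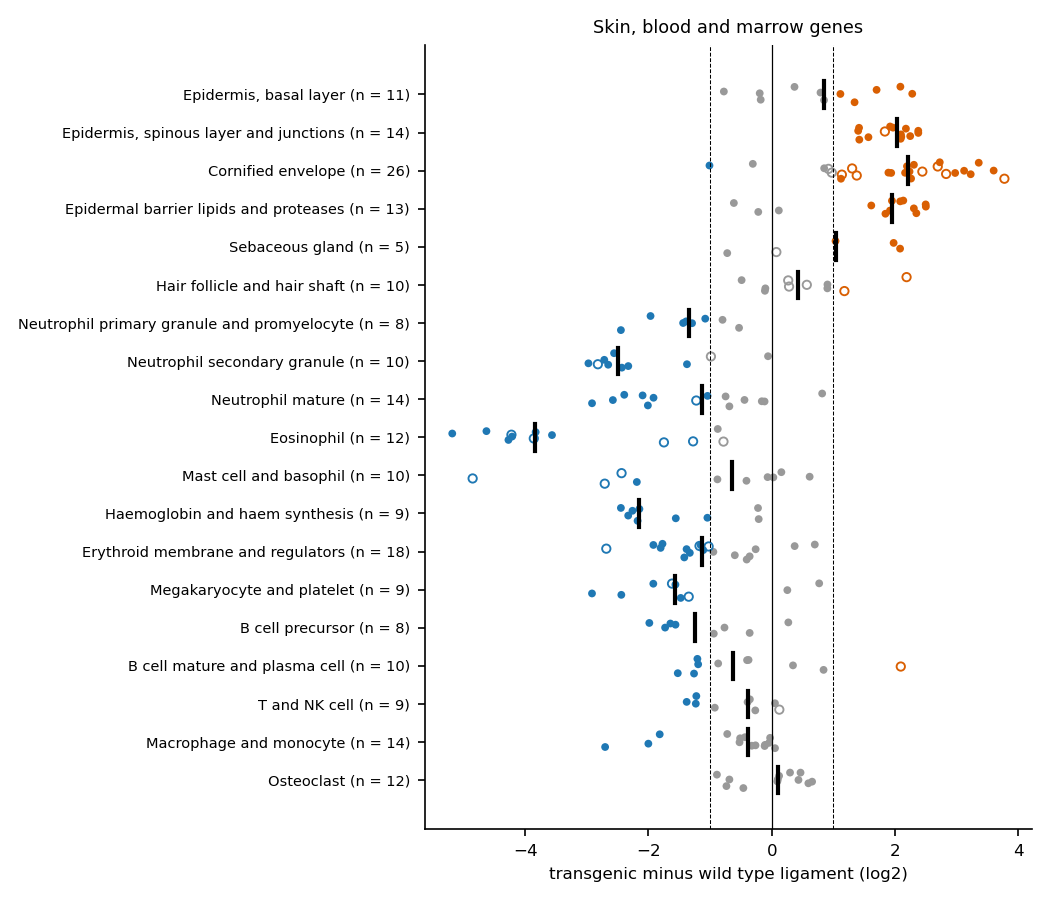
Points are genes of skin, blood and marrow lists, placed by the transgenic minus wild type difference (log2), with orange for at least 2-fold higher, blue for at least 2-fold lower and grey between. Open points are lower limits, black bars are list medians, and n counts genes with a value. Skin medians run up to 2.22 and the eosinophil median reaches -3.85, while the macrophage median is -0.38 and that of the osteoclast list, a bone list drawn beside it, 0.11.

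Blood and marrow genes were lower in transgenic ligament. Of 147 detected genes over all blood and marrow lists, 80 were lower and 2 higher, with a median of -1.14. Eosinophil genes had 10 of 12 lower, none higher and a median of -3.85. Epx, the eosinophil peroxidase, was well above background on the wild type array only, at least 14.5-fold lower, and Siglecf and Alox15 were at least 3.36-fold and 2.42-fold lower. The receptors Ccr3 and Il5ra lay at -0.88 and at a limit of -0.78.

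Neutrophil genes were listed by the stage at which they are made, and the ranges of the lists overlapped. Primary granule genes, made first in marrow promyelocytes, had 6 of 8 lower, none higher and a median of -1.34, with the peroxidase Mpo at -1.08, the elastase Elane at -1.39 and the factor Cebpe at -2.45. Secondary granule genes, made in later marrow stages, had 8 of 10 lower, none higher and a median of -2.49. Lactoferrin (Ltf) had levels of 0.98 and 3.95, and cathelicidin (Camp) had 5.22 and 7.65. Ngp, Lcn2 and Mmp8 differed by between -2.72 and -2.33. Genes of mature neutrophils had 8 of 14 lower, none higher and a median of -1.13. S100a8 had levels of 5.60 and 7.99, while its partner S100a9 had 8.34 and 9.38, and the receptor Csf3r had 5.15 and 5.31. S100a9 differed by -0.45 in its highest alternative. In the mast cell and basophil list 4 of 10 were lower, Tpsab1, Mcpt8, Slc18a2 and Hdc. The mast cell tryptase Tpsab1 was well above background on the wild type array only, while the mast cell genes Tpsb2, Cma1, Mcpt4 and Cpa3 lay between -0.88 and 0.16.

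Red cell genes were lower in the same direction. Haemoglobin and haem synthesis genes had 7 of 9 lower, none higher and a median of -2.15. Hba-a1 had levels of 6.37 and 8.63, Hbb-bs had 4.01 and 6.46, and Alas2, the first enzyme of haem synthesis in red cells, had 1.19 and 3.36. Urod and Fech, haem enzymes that all tissues use, differed by -0.21 and -0.22. The globin copies share sequence, and their probes may share signal. Hba-a2, at -1.04, moved to -0.48 in its highest alternative. Erythroid membrane and regulator genes had 11 of 18 lower, none higher and a median of -1.13, with the band 3 gene Slc4a1 at -1.38 and the regulator Gata1, with levels of -1.82 and 0.10, at -1.92. The median moved to -0.63 in its highest alternative.

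The factor GATA1 acts in the red cell, eosinophil, mast cell and platelet lines, and binds sites with the letters AGATAA or their reverse complement. These letters were searched on both strands in the 250 bases before the RefSeq start site, where 11.4% of 27025 genes held them. They were present in 2 of 6 haemoglobin and haem genes with a promoter sequence, 5 of 13 erythroid membrane genes, 5 of 10 mast cell genes, 2 of 10 eosinophil genes and 3 of 11 platelet genes. A match describes the letters and is not a binding site. All 7 red cell genes with the letters were at least 2-fold lower. The red cell lists as a whole, with or without the letters, had 7 of 9 and 11 of 18 genes lower. Whether the letters go with the differences was not tested. Of the eosinophil genes with the letters, Ccr3 differed by -0.88, within 2-fold. Il5ra had a limit of -0.78, which does not show whether it passed 2-fold. Of the 5 mast cell genes 3 had a value and 1 was lower, and none of the 3 platelet genes had a value. Stretches around the match are shown for 4 red cell genes that were lower, from RefSeq on GRCm38.p6, with the match in capitals. They lie on chrX:150547301-150547366 (plus strand), chr7:103828103-103828168 (minus), chr9:21963595-21963660 (minus) and chr4:134864463-134864528 (plus).
Alas2: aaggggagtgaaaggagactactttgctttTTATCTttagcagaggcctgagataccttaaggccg
Hbb-bs: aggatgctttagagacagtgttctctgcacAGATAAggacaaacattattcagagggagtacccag
Epor: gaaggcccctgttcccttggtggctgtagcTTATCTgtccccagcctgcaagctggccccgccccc
Rhd: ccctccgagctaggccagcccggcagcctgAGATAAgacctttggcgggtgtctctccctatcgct
The match in Alas2 lies 80 bases before the start site, that in Epor, the erythropoietin receptor, 48, and that in the blood group gene Rhd 37. Epor differed by -1.33, Rhd by -1.77 and Alas2 by -2.18 between the ligaments.

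Platelet genes had 7 of 9 lower, none higher and a median of -1.56, with the chemokines Pf4 at -1.56 and Ppbp at -2.44 and Treml1 at -2.92. The median moved to -0.74 in its highest alternative. B cell precursor genes had 4 of 8 lower, none higher and a median of -1.25, with the pre-B receptor genes Vpreb1 and Vpreb3 at -1.73 and -1.64 and the antigen receptor partners Cd79a and Cd79b at -1.56 and -1.99. A dimmer probe of Cd79a, also well above background on both arrays, differed by -0.23. Mature B and plasma cell genes had 4 of 10 lower and 1 higher, the complement receptor Cr2, at least 4.27-fold. T and NK cell genes had 3 of 9 lower, Gzma, Lck and Cd2, while Cd3e had levels of 1.45 and 1.40.

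Macrophage genes held fewer calls. Of 14 detected, 3 were lower and none higher, 13 lay below 0, and the median was -0.38. Csf1r, the receptor that macrophages depend on, had levels of 2.87 and 3.13. The complement genes C1qa, C1qb and C1qc lay between -0.32 and -0.03, and Adgre1 at -0.43. The lower members were the lysozymes Lyz2 (-2.70) and Lyz1 (levels of 3.10 and 5.10), which neutrophils also express, and Folr2 (-1.82). Genes of blood stem and progenitor cells had 2 of 10 lower and none higher, Flt3 and Mecom, both limits, with a median of -0.20. Dendritic cell genes had 4 of 7 lower, with Irf8 at -1.55, and Cd207, named above, higher.

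Genes of cell division and of the interferon response were lower alongside the marrow genes. Mitosis genes had 8 of 17 detected members lower, none higher and a median of -0.94. The ubiquitin carrier Ube2c had levels of -1.78 and 0.39, 4.52-fold lower, the kinase Aurka differed by -1.63, Ccnb2 by -1.32 and Birc5 by -1.07. Mki67 differed by -0.21. DNA replication genes had 2 of 15 lower, Mcm5 (-1.24) and Mcm3 (-1.20), and none higher, with a median of -0.27. Interferon response genes had 6 of 16 lower, none higher and a median of -0.53, with Isg20 at -1.70, Rsad2 at -1.65, Irf7 at -1.42 and Isg15 at -1.05. Of 12 detected chemokines and cytokines, Ccl6, a chemokine of myeloid cells (-1.65), and Cxcl13 (at least 3.12-fold) were lower. MHC class I genes had none of 10 past 2-fold and a median of 0.00. In MHC class II the main chains H2-Ab1, H2-Aa, H2-Eb1 and Cd74 lay between 0.13 and 0.50, and H2-Oa and H2-Ob, made in B cells, were at least 2.41-fold and 2.24-fold lower. The share of the blood and marrow lists in these values was not tested. Over those lists 80 of 147 were lower, and their summed signal was 0.674% on the transgenic and 1.43% on the wild type array.

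Chaperones of the endoplasmic reticulum, which fold secreted proteins such as collagen, had 8 of 22 members higher and none lower, and the median was 0.67. All 22 had a value and 18 lay above 0. Hspa5 (BiP), the main chaperone of this compartment, had levels of 5.30 and 3.86, 2.72-fold higher. Sdf2l1 differed by 1.50, Creld2 by 1.37, Manf by 1.25, Pdia4 by 1.20, Hsp90b1 by 1.10 and Dnajc3 by 1.07, and Derl3 was at least 4.60-fold higher. Herpud1 differed by 0.38, Edem1 by -0.28 and the translocon gene Sec61b by -0.07. Pdia4 came to 0.61 and Dnajc3 to 0.91 in their lowest alternative.

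Many of these genes carry the endoplasmic reticulum stress element, bound by NF-Y and ATF6 and spelled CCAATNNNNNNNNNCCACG, where N is any base. On either strand of the 250 bases before the RefSeq start site, its letters were found in 9 of the 20 chaperone genes with a promoter sequence and in 0.13% of 27025 genes. The 9 genes differed by between 0.51 and 2.20, and 5 of them were at least 2-fold higher. The 11 without the letters differed by between -0.28 and 1.50, and 2 were higher. These are descriptions of letters in a window and not of binding. The 5 higher genes are shown from RefSeq on GRCm38.p6, with the fixed letters of the element in capitals. They lie on chr2:34771995-34772073 (plus strand), chr10:86705503-86705686 (minus), chr14:118937797-118937875 (plus), chr15:88819490-88819568 (plus) and chr10:75893212-75893290 (plus).
Hspa5: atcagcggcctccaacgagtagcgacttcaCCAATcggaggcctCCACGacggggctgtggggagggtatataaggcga
Hsp90b1: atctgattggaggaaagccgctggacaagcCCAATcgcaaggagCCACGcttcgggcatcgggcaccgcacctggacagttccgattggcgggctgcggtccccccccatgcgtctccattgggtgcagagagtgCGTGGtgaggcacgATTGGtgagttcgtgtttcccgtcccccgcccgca
Dnajc3: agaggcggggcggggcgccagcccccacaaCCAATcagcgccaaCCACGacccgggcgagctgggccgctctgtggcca
Creld2: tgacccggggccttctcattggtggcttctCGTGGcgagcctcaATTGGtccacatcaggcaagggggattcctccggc
Derl3: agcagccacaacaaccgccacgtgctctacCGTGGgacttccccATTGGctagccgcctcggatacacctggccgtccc
Hsp90b1 holds the element on each strand, and in Creld2 and Derl3 it lies on the reverse strand. In Hspa5 it ends 46 bases before the start site. The other genes with the letters, Canx, Pdia6, Calr and Syvn1, differed by 0.84, 0.76, 0.55 and 0.51.

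A list of transport genes from the endoplasmic reticulum to the Golgi, added after values were seen, had 3 of 20 higher and none lower, and the median was 0.43. The retrieval receptor Kdelr3 differed by 2.02, and Creb3l2, a factor that raises secretory capacity, was at least 2.42-fold higher. Targets of ATF4, the factor of the amino acid and stress response, had 4 of 18 detected members higher and none lower, and the median was 0.63. Atf3 differed by 2.41, Mthfd2 by 1.61, Trib3 by 1.47 and Ddit4 by 1.04, whereas Ddit3 differed by 0.26 and Asns by 0.58. Immediate early genes had 4 of 18 higher, none lower and 17 of 18 above 0, with Atf3, Egr1, Maff (1.35) and Egr2. The early genes Fos and Jun differed by 0.62 and 0.53. In the heat shock list Hspa1a alone passed 2-fold, at least 3.46-fold higher.

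**Figure D5:**
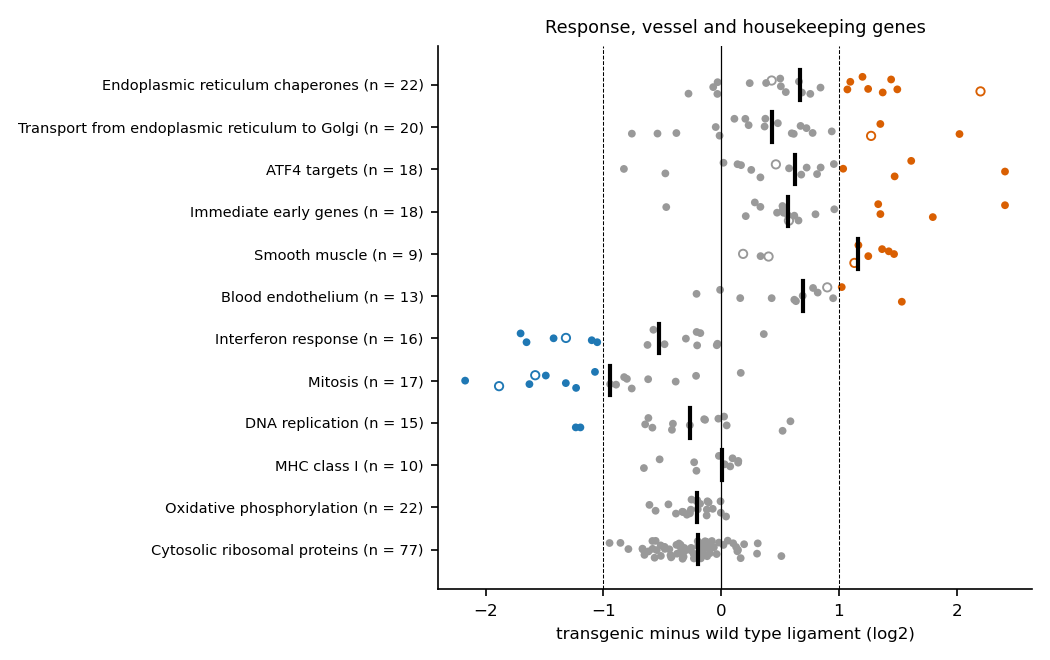
Points are genes of response, vessel and housekeeping lists, placed by the transgenic minus wild type difference (log2), with orange for at least 2-fold higher, blue for at least 2-fold lower and grey between. Open points are lower limits, black bars are list medians, and n counts genes with a value. The chaperone median is 0.67 and the mitosis median -0.94, and the ribosomal and oxidative phosphorylation genes stay within 2-fold.

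Smooth muscle genes had 6 of 9 detected members higher, none lower and a median of 1.17, with the actin Acta2 at 1.37, transgelin (Tagln) at 1.42 and calponin (Cnn1) at 1.25. The median member is Casq2, which the slow fibre list also holds, and the median came to 0.68 in its lowest alternative. Synpo2, another of the 6, differed by 1.47, but by -0.26 at a brighter probe. The smooth muscle myosin Myh11 was well above background on the transgenic array only, with a limit of 0.40. Pericyte genes had 3 of 8 higher, Cspg4, Ndufa4l2 and Notch3, and blood endothelium 2 of 13, Plvap (1.53) and Cldn5 (1.02). The endothelial markers Cdh5 and Pecam1 differed by 0.64 and 0.43.

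White fat genes had 3 of 12 detected members lower and none higher. Cidec, a lipid droplet protein, differed by -1.76, Thrsp by -1.62 and the adipokine resistin (Retn) by -1.35, while the defining markers Adipoq and Plin1 lay at -0.53 and -0.40. In the brown fat list 2 of 6 detected genes were higher, Dio2 (2.15) and Cidea (2.14), and none lower. Cox7a1, with levels of 8.38 and 9.30, and Otop1, at -0.93, lay on the other side of 0, the list median was 0.04, and Ucp1 was not well above background on either array. In the Schwann cell list Ncmap differed by 1.05. Of the axon genes 5 of 10 had a value, with Uchl1 at least 6.21-fold higher and Calca at least 3.08-fold lower.

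Signalling genes of connective tissue gave small counts in both directions. Ligands and modulators of TGF-beta, BMP and GDF signalling had 3 of 23 detected genes higher and 3 lower, and the median was 0.53. The higher ones were Chrdl2 (at least 2.40-fold), Inhbb (1.23) and Fst, and the lower ones Gdf7 (at least 7.07-fold), a ligand that promotes tendon formation, Mstn, and the decoy receptor Bambi (at least 2.85-fold). Tgfb1, Tgfb2 and Tgfb3 differed by -0.28, 0.61 and 0.55. Of 16 response genes of this pathway, Ccn2 and Skil (1.07) were higher and none was lower. Wnt ligands and modulators had 4 of 20 higher and 1 lower. Wnt10a differed by 2.31, the antagonist Wif1 by 1.76 and Dkk3 by 1.11, Dkk1 was at least 4.46-fold higher, and Sfrp2 differed by -1.80. In the IGF system none of 11 passed 2-fold.

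Other response lists held few calls. Nr1d1 (REV-ERB alpha), which peaks with daily time, differed by 2.05 and Clock by 1.21, while the clock output gene Dbp differed by -1.43. The core genes Arntl and Per1 lay at 0.33 and 0.17. The hours at which the tissues were taken are not in the labels, and their part was not tested. In the cholesterol synthesis list Sqle differed by 1.17. The glycolysis and hypoxia list had 2 of 20 higher, Egln3 (1.96) and Ankrd37 (1.11), and 2 lower, Pgk1 (-1.02) and Car9 (-1.20). Pgk1 moved to -0.63 in its highest alternative. Of 14 glucocorticoid targets Cdkn1a alone passed 2-fold.

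Housekeeping lists gave a view of the scaling. None of 22 oxidative phosphorylation genes and none of 77 detected ribosomal protein genes, a list added after values were seen, passed 2-fold. Their medians were -0.21 and -0.20, ranging over the alternatives from -0.26 to 0.05 and from -0.30 to 0.06. In the check of sex, Xist had levels of -1.25 and -2.32 and was well above background on both arrays. The Y-linked genes Ddx3y, Eif2s3y, Kdm5d and Uty were not well above background on either, and neither was H2-Ea. Nnt, which carries a deletion of several exons in C57BL/6J mice, was well above background on both arrays at 1 of its 3 probes, with levels of 2.16 and 1.92. Whether that probe lies in the deleted part was not examined, so its signal does not check the strain label.

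Genes of limb position held few calls. In a list of Hox genes added after values were seen, 19 of 39 had a value. Of these 2 were higher, 2 lower and 15 neither, and the median was 0.12. Hoxa13, a gene of the most distal limb, had levels of -1.80 and -3.26, and Hoxa11, of the lower arm and leg, had 0.23 and -1.02, both higher in transgenic ligament. Hoxd8, with levels of 0.06 and 1.86, and Hoxd9, with -0.54 and 0.87, were lower. Hoxa10 and Hoxa9 differed by 0.69 and 0.55, and Hoxc9 and Hoxc10 by -0.15 and -0.28. Of 10 other regional factors with a value, added likewise, 2 were higher and none lower, and the median was 0.01. The hindlimb factors Tbx4 and Pitx1 were well above background on both arrays, at 0.22 and 0.69, and Tbx5 of the forelimb on neither. Whether the same ligament was taken from both genotypes is not in the labels, and its part was not tested.

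Most called genes had no neighbour called in the same direction. Along 16192 genes placed by probe position (mm9), 819 higher and 896 lower genes stood alone. Another 40 stretches held 3 or more consecutive genes past 2-fold in the same direction, 18 higher and 22 lower. The longest held 8 late cornified envelope genes, Lce1a1 to Lce1g, on chromosome 3 between 92450489 and 92554348. Another, Klk9, Klk8, Klk7, Klk5 and Klk1b26, lay on chromosome 7 between 51051703 and 51272331, and the keratins Krt1, Krt77, Krt79 and Krt78 formed one on chromosome 15 between 101676107 and 101776658. The proteoglycan genes Ecm2, Aspn, Omd and Ogn stood next to each other on chromosome 13 between 49628083 and 49719608, and all 4 were higher, by 1.19 to 2.14. Lower stretches held the immune receptor genes Pira2 to Lilra6 on chromosome 7, the Klra receptors of NK cells on chromosome 6 and probes of immunoglobulin kappa on chromosome 6. Near-identical neighbours, as in the Lce and Klk stretches, can share probe signal.

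Probes of the same gene gave a further view of precision. For 2994 genes with several probes well above background on both arrays, the range between probes was 0.35 at the median and 0.98 at the 90th percentile, and 1 gene had probes past 2-fold in opposite directions. Of the 446 of these genes with any probe past 2-fold, 99 (22.2%) had every probe past it in the same direction. For 163 called genes another measured probe existed. Of these 182 other probes 164 had the same sign, 107 passed 2-fold the same way and 1 the other way.

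Called genes were detected less often than genes not called on the stem cell and transfected tissue arrays. Calls were also more frequent among dim genes, and 355 of the higher and 381 of the lower calls were limits. The part of brightness in the shares below was not tested. Of genes with a value and no call, 90.8% were well above background in stem cells and 90.1% in the transfected tissue. For the higher genes these shares were 61.4% and 62.5%, and for the lower genes 54.7% and 54.4%. Prg2, Actc1, Myh3, Sln, Lor, Krt1 and Cilp were not well above background on either cell array. The ligament genes Comp, Tnmd, Fmod and Scx were well above background on both.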

How the data were processed

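Per the file headers, the deposited scanner files hold spot intensity as background-subtracted, detrended processed signal, made with Feature Extraction 10.7.1.1, whereas the submitters' processing notes name version 9.5.1.1. A deposited table of linear intensity served as an alternative. All arrays lay on the same slide with the same scan. Control spots and outlier spots were left out and log2 signal minus the 75th percentile of the array was averaged per probe. Of 39429 probes, 26856 were named by accession and 3752 by the symbol in the files, through a RefSeq table on GRCm38.p6. A gene took, of its probes well above background on a ligament array, that with the highest mean over the 4 arrays. Probe positions are mm9 and probes were not realigned.

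No replicate existed, so no test was made. The step was tested on simulated data. The genes, the 74 lists and the named genes were chosen with earlier results of these data known, and 8 lists were added after values were seen. Named genes were, among official-style symbols, the 12 highest and 12 lowest and the 6 largest limits each way. Also named were all detected tendon, proteoglycan and fibrillar collagen genes, list members past 2-fold or, where fewer passed, up to 4 of the largest, and members of the longest stretches of neighbours. Some other list members are given as context, chosen after their values were seen. A few named genes are not reported here. Alternatives were normexp on mean and background signal (limma 3.58.1 in R 4.3.3, offset 50), quantile normalization, centring on probes detected on both ligament or on all arrays, the deposited table, genes measured on both arrays only, no filter and the mean of all probes. Python 3.11.15 with pandas 2.3.3 was used.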

Additional observations from a re-analysis of the deposited data

How the results depend on the processing

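No paired analysis was possible because each group holds 1 array. Of 8 alternatives, 3 moved the count of higher genes from 1035 by over 1.5 times. It was 404 with normexp, 680 over genes measured on both arrays and 2151 with no filter and no limit. The count of lower genes, 1160, moved to 572 with normexp and 2087 with no filter. Normexp adds an offset that shrinks dim differences, and the last 2 settings test fewer or more genes by construction. The other settings gave 1011 to 1272 higher and 1056 to 1468 lower genes. The share of calls that were higher was 47.1%, with a range from 41.4% to 52.5%. Of 333 named genes past 2-fold, 208 passed in every setting that gave them a value, 112 did not with normexp, and none changed sign in any setting. All 23 list medians past 2-fold kept their direction, and 67 of all 81 did. Of those 23, 13 came within 2-fold in at least 1 setting, among them osteoblast (0.42), smooth muscle (0.68), small proteoglycans (0.79), platelet (-0.74) and erythroid membrane (-0.63). Signal over background limits the dim genes, and 1 array a side limits every value.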
